A study of Homo sapiens with 9 samples.

Results

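The 10 genes described here encode interleukins and growth factors of blood cells that epithelial cells can release: IL17C, IL23A, IL32, IL1A, IL1B, IL18, IL6, LIF, CSF1 and CSF2. They were picked by their gene symbol from the count table, each gene identifier once, and are 10 of its 62710 distinct identifiers. HT-29 is a line grown from the epithelial cells of 1 human colorectal adenocarcinoma, and all 9 libraries carried the wild-type genotype. The 3 groups of 3 libraries were non-stimulated cells, cells given 500 ng/mL flagellin and cells given 500 ng/mL ADP-heptose, with RNA taken after 2.5 h. The stimuli were thus matched by mass and time but not by number of molecules, and only this dose and this early time were measured here. Differences between them therefore hold for these doses. The question put to these groups was which of the genes answered each bacterial product, and by how much the answers differed.

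Flagellin, the protein of bacterial flagella, is sensed outside the cell by the receptor TLR5. ADP-heptose, an intermediate in the making of lipopolysaccharide, is sensed inside the cell by the kinase ALPK1, which acts through the adaptor TIFA. Both routes lead to the transcription factor NF-κB, and many genes of cytokines carry NF-κB sites. In the gut lining such cytokines serve different ends: IL-17C acts back on epithelial cells, IL-23 sustains type 17 lymphocytes, IL-1α and IL-18 are alarm signals, LIF belongs to the IL-6 family, and M-CSF (CSF1) and GM-CSF (CSF2) feed macrophages and granulocytes.

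RefSeq promoter windows (build GRCh38.p14) were held for 6 of the 10 genes, as 8 windows because IL32 and IL1A had 2 each. A window ran from 250 bases before a transcription start to 50 bases after it and was searched on both strands for the κB motif, for the AP-1 motif TGANTCA and for the TATA motif TATAAA. Among all 35116 windows in that table, 11.3% held a κB match, 7.71% an AP-1 match and 11.5% a TATA match. No entry was held for IL17C, IL18, LIF and CSF1. The 250 bases before the start are shown for 4 genes that gave different answers below: IL23A and IL32, which rose after ADP-heptose and carry κB matches, IL1A, which rose and has AP-1 but no κB match in its windows, and IL6, which has a κB match and no counted read. Capitals mark the matches.

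IL23A (chr12:56338634-56338883, plus strand): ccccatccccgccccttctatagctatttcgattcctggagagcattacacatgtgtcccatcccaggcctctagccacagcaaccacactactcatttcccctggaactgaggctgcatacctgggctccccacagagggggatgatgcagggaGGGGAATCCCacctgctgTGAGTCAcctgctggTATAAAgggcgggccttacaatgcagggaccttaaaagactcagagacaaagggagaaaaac
IL32, first start (chr16:3065153-3065402, plus strand): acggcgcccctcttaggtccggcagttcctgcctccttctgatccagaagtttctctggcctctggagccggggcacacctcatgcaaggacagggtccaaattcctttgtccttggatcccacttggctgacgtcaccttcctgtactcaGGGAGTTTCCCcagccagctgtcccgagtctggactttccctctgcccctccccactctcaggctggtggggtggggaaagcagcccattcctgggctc
IL1A, first start (chr2:112784494-112784743, minus strand): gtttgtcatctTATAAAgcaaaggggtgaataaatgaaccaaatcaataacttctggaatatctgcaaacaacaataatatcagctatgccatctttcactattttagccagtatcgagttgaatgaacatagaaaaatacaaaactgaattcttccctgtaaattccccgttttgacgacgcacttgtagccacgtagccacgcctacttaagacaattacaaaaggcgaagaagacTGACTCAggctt
IL6 (chr7:22726950-22727199, plus strand): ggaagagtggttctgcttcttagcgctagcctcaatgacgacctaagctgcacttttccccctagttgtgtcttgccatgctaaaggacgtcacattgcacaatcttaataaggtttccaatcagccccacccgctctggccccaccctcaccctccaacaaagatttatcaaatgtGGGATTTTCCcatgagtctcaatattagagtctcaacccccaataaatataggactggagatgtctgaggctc

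The κB match of IL23A starts 95 bases before the transcription start and is followed by an AP-1 match at 77 and a TATA match at 62 bases before it. In IL32 a pair of overlapping κB matches, on opposite strands, starts 99 and 98 bases before the first start, and the window of the second start has no match of any of the 3 motifs. The κB match of IL6 starts 73 bases before the start. IL1A has an AP-1 match 12 bases before its first start, a TATA match 239 bases before it, and another AP-1 match that lies after that start and is not shown. In the window of the second start of IL1A the same AP-1 matches lie 105 and 55 bases before the start. The windows of IL1B and CSF2 held none of these letters. These matches are a description of the reference sequence, and binding was not measured.

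The libraries held 30770448 to 58272772 counts, and those of the ADP-heptose group were the deepest. ADP-heptose replicate 3 stood apart from the rest of its group: over 11854 genes, its log2 values differed from those of replicates 1 and 2 with SDs of 0.374 and 0.38, against 0.127 between replicates 1 and 2. The epithelial identity was checked with 10 markers, none of which was at 0 in all libraries, and their summed level was 9030 to 11900 CPM (counts scaled to a common library total), although CDX1 was at 0 in every non-stimulated and flagellin library. Of 10 leukocyte markers, 5 (CD3E, CD3G, CD2, MS4A1 and FCGR3A) were at 0 throughout, and the pan-leukocyte gene PTPRC had 0 to 2 counts. The summed leukocyte level was 0.114 to 0.48 CPM in the controls, 0.313 to 0.682 with flagellin and 0.611 to 1.46 with ADP-heptose. Most of the last range was ITGAM, a myeloid integrin chain, with 0, 0 and 6 counts without stimulation and 59, 42 and 23 after ADP-heptose (log2 fold change 3.87 ± 0.87, standard error, edgeR adjusted p = 0.0121). ITGAM lost its call without non-stimulated replicate 1 (0.0563) or 2 (0.0524) and reached 8.10 without replicate 3. It passed the filter only through the ADP-heptose libraries, and its part in the results below was not tested. Of 9 stromal markers 4 were at 0 throughout, and the summed level was 12.9 to 15.3, 12.9 to 16.4 and 16.5 to 17.5 CPM in the same order of groups. Nearly all of it was COL1A1, a collagen chain (12.7 to 17.5 CPM over the 9 libraries), which was called higher after ADP-heptose (log2 fold change 0.41 ± 0.11, adjusted p = 0.0311) but not without ADP-heptose replicate 2 (0.0646), non-stimulated replicate 1 (0.108) or 2 (0.124) or with library totals (0.111). The epithelial keratin KRT20 was called higher too (0.40 ± 0.06, adjusted p = 9.4e-04, and in all 16 alternatives). The part of either in the results below was not tested.

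ADP-heptose raised 8 of the 10 genes. The test was edgeR's quasi-likelihood F test in 1 fit of all libraries, and a gene was called at a Benjamini-Hochberg adjusted p under 0.05 over the 17412 genes tested. Of the 9 genes that passed the filter on low counts, IL17C, IL23A, IL32, IL1A, IL1B, LIF, CSF1 and CSF2 were higher after ADP-heptose than without stimulation, whereas among all genes tested 7.48% were called higher and 4.42% lower. Flagellin raised 3 of the 9, IL17C, IL32 and CSF1, where 0.368% of all genes were called higher and 0.0115% lower. By the unadjusted edgeR p, 7 of the 9 were under 0.05 after flagellin, beside 659 of the 17412 genes tested. Between the stimuli 7 of the 9 were higher after ADP-heptose, all but IL1B and IL18, beside 5.40% of all genes called higher and 2.76% called lower. All calls of these genes were also changes of at least 2-fold. Without ADP-heptose replicate 3 the numbers called were 8 after ADP-heptose, 4 after flagellin (LIF in addition) and 7 between the stimuli. IL1B passed the filter only through the ADP-heptose libraries, where it was high, so that its place among the called genes was partly set by the filter. IL17C reached the filter level in 0 non-stimulated libraries and in all 3 of each stimulated group. Its calls against the controls were thus partly set by the filter too. IL6 had 0 counts in all libraries and was not tested. The median log2 fold change of the 9 genes was 3.42 after ADP-heptose, 1.15 after flagellin and 2.69 between the stimuli, beside 0.01, 0.00 and 0.01 for all genes tested. The members were chosen with earlier results of these data known, so these shares and medians are a scale and not a test.

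**Figure D1:**
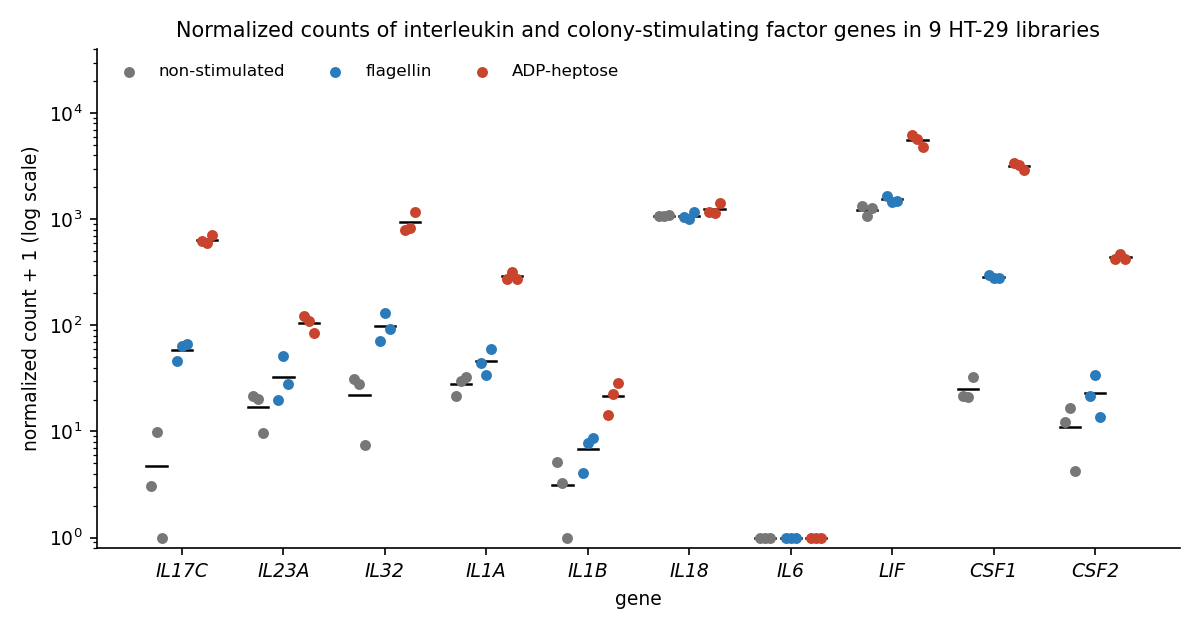
Normalized counts of the 10 genes in each library, on a log axis after adding 1, with grey points for non-stimulated cells, blue for flagellin and red for ADP-heptose and a bar at the mean of each group of 3. The red points lie above the grey and blue points in 8 genes, the 3 groups of IL18 lie close together, and IL6 is at 0 in all 9 libraries.

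In the plot of normalized counts the ADP-heptose points of 8 genes stood clear of both other groups, and those of LIF and CSF1 reached the highest values. The share of all genes tested that separated in this way was not counted. Genes that were not called can separate too, as KRT18 did from the controls (edgeR adjusted p = 0.096). All values below are normalized counts, that is counts scaled by TMM to a common depth, unless another unit is named. In a bulk sample, fewer cells that make a transcript and less transcript per cell cannot be told apart.

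IL17C (chromosome 16, 88638591 to 88640473, GRCh38), the cytokine with which epithelial cells signal to their own kind through the receptor pair IL-17RA and IL-17RE, was among the genes with the highest fold changes after ADP-heptose. It measured 2.06, 8.98 and 0 in the non-stimulated libraries, 45.5, 62.9 and 65.1 after flagellin, and 623, 596 and 709 after ADP-heptose. The 3 groups did not overlap, and each step was larger than the spread within groups. The log2 fold change was 7.43 ± 0.36 after ADP-heptose (standard error, n = 3 against 3, edgeR adjusted p = 3.2e-08) and 3.95 ± 0.47 after flagellin (adjusted p = 0.0015). Between the stimuli it was 3.48 ± 0.24 (adjusted p = 1.4e-06). The fold changes against non-stimulated cells rest on 10 counts in the 3 control libraries, 8 of them in replicate 2. Without that library they were 9.09 and 5.61, and without replicate 3 they were 6.87 and 3.39, with the same calls. By counting error alone the ratio of pooled CPM was 162 (95% exact interval 88.1 to 339) after ADP-heptose and 15.7 (8.32 to 33.5) after flagellin. These intervals take each count as independent. Whether both mates of a read pair were counted separately is not given in the sources used here, and the intervals are too narrow if they were.

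IL23A (chromosome 12, 56334174 to 56340410) encodes the p19 chain that joins the p40 chain of IL12B to make IL-23. It measured 20.6, 19.1 and 8.65 without stimulation, 18.6, 50.3 and 26.8 after flagellin, and 122, 109 and 83.6 after ADP-heptose. The ADP-heptose libraries were above all others, and the flagellin libraries overlapped with the controls. The log2 fold change was 2.69 ± 0.38 after ADP-heptose (adjusted p = 4.4e-04) and 1.72 ± 0.35 between the stimuli (adjusted p = 0.00852). The second of these calls was lost without flagellin replicate 3 (adjusted p = 0.0516). After flagellin the log2 difference was 0.97 (95% interval 0.06 to 1.89) with an adjusted p of 1, so that a change of this size was not resolved. The partner gene IL12B had 0 counts in the controls, 2 to 8 after flagellin and 0 to 4 after ADP-heptose, and did not pass the filter.

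IL32 (chromosome 16, 3065297 to 3082192), a pro-inflammatory cytokine without close relatives, measured 29.9, 26.9 and 6.49 without stimulation. It measured 70.3, 129 and 90.6 after flagellin and 797, 827 and 1174 after ADP-heptose. The 3 groups did not overlap, and non-stimulated replicate 3 was low in IL32, as it also was in IL17C, IL23A, IL1B and CSF2. The same library was the highest of the controls in IL1A, IL18 and CSF1. On the log2 scale the rise was 5.45 ± 0.34 after ADP-heptose (adjusted p = 3.4e-07) and 3.27 ± 0.28 between the stimuli (adjusted p = 8.2e-06). After flagellin it was 2.18 ± 0.39 (adjusted p = 0.0361). This call was lost in each fit without a flagellin or a non-stimulated library, with adjusted p of 0.0542 to 0.18 and log2 fold changes of 1.76 to 2.53, and was also lost with the replicate number as a block (0.14).

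Of the IL-1 family, IL1A and IL1B were called after ADP-heptose and IL18 was not. IL1A (chromosome 2, 112773915 to 112784590, minus strand), whose product IL-1α is an alarm signal active in its precursor form, measured 20.6, 29.2 and 31.4 without stimulation, 43.4, 33.2 and 58.7 after flagellin, and 273, 319 and 274 after ADP-heptose. The 3 groups did not overlap. Its log2 fold change was 3.42 ± 0.22 after ADP-heptose (adjusted p = 5.1e-07) and 2.69 ± 0.21 between the stimuli (adjusted p = 3.8e-06). After flagellin the log2 difference was 0.73 (95% interval 0.18 to 1.28) and did not pass (adjusted p = 0.943).

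IL1B (chromosome 2, 112829751 to 112836903, minus strand), whose product needs cleavage to be active, stayed close to the limit of detection. Its raw counts were 4, 2 and 0 without stimulation, 3, 6 and 6 after flagellin and 16, 30 and 31 after ADP-heptose. The ADP-heptose libraries were above all others. The log2 fold change after ADP-heptose was 3.20 ± 0.69 (adjusted p = 0.00945), and 4.09 without non-stimulated replicate 1, still past the threshold. By counting error alone, with each count taken as independent, the ratio of pooled CPM was 8.75 (3.84 to 24.6). The log2 differences of 1.38 after flagellin (95% interval −0.42 to 3.17, adjusted p = 1) and 1.82 between the stimuli (0.52 to 3.13, adjusted p = 0.094) did not pass.

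IL18 (chromosome 11, 112143251 to 112164117, minus strand), which gut epithelium makes at rest and which is also released by cleavage, was the tested gene that was called in no comparison. It measured 1072, 1066 and 1106 without stimulation, 1044, 1014 and 1161 after flagellin, and 1161, 1138 and 1420 after ADP-heptose. The ADP-heptose libraries lay just above the controls and overlapped with the flagellin libraries. The log2 difference after ADP-heptose was 0.20 (95% interval −0.01 to 0.41, adjusted p = 0.232), after flagellin −0.01 (−0.22 to 0.20, adjusted p = 1) and between the stimuli 0.21 (−0.003 to 0.42, adjusted p = 0.243). At this depth the intervals thus held changes of up to 0.42 on the log2 scale in either contrast with ADP-heptose.

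IL6 (chromosome 7, 22725884 to 22732002) and LIF both belong to the family that signals through the shared chain gp130. IL6 had 0 counts in all 9 libraries. Taken as 3 counts a library, with each count independent, a count of 0 allows up to 0.0515 to 0.0975 CPM. The exons of IL6 overlap those of STEAP1B and AC073072.1 on the other strand, which had 0 to 3 and 0 counts.

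LIF (chromosome 22, 30240447 to 30246851, minus strand) was already well expressed without stimulation, at 1321, 1082 and 1283. It measured 1649, 1467 and 1489 after flagellin and 6219, 5701 and 4770 after ADP-heptose, so that the 3 groups did not overlap. The log2 fold change was 2.18 ± 0.11 after ADP-heptose (adjusted p = 4.9e-08) and 1.86 ± 0.11 between the stimuli (adjusted p = 3e-07). After flagellin the log2 difference was 0.32 (95% interval 0.08 to 0.56) and missed the threshold in the fit of all libraries (adjusted p = 0.902). It passed without ADP-heptose replicate 3 (0.00637) and in the fit of the 6 libraries compared (0.018), with log2 fold changes of 0.31 and 0.32. The exons of LIF overlap the antisense genes AC004264.1 and LIF-AS1. AC004264.1 had 27 to 40 counts without stimulation, 34 to 50 after flagellin and 224 to 265 after ADP-heptose, and LIF-AS1 had 0 to 12. Whether strand was used in counting is not given in the sources used here, so reads of LIF and of its antisense neighbours could not be told apart.

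CSF1 (chromosome 1, 109910242 to 109930992), which encodes the macrophage growth factor M-CSF, was the most precisely measured large change. It measured 20.6, 20.2 and 31.4 without stimulation, 297.8, 279 and 276 after flagellin and 3423, 3230 and 2941 after ADP-heptose. The groups did not overlap, and the gaps between them were far wider than the spread within each. CSF1 rose by 7.05 ± 0.14 on the log2 scale after ADP-heptose (adjusted p = 8.3e-12), 3.56 ± 0.15 after flagellin (adjusted p = 1e-07) and 3.49 ± 0.11 between the stimuli (adjusted p = 6.4e-10).

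CSF2 (chromosome 5, 132073790 to 132076170), which encodes GM-CSF, was not called after flagellin, whereas CSF1 was. It measured 11.4, 15.7 and 3.24 without stimulation, 20.7, 33.2 and 12.8 after flagellin and 418, 473 and 416 after ADP-heptose. The ADP-heptose libraries were far above all others, and the flagellin and control libraries overlapped. CSF2 rose by 5.42 ± 0.33 on the log2 scale after ADP-heptose (adjusted p = 2.5e-07) and 4.27 ± 0.29 between the stimuli (adjusted p = 1.1e-06), the largest of the 10 genes in the latter contrast. After flagellin the log2 difference was 1.15 (95% interval 0.18 to 2.11, adjusted p = 1).

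**Figure D2:**
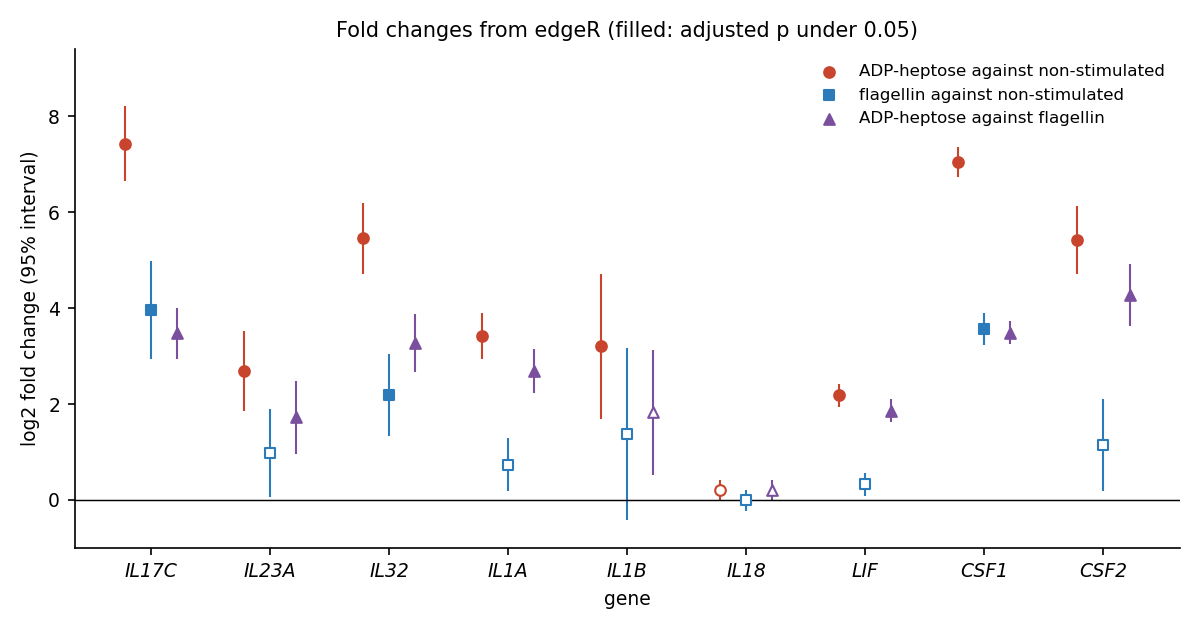
Log2 fold changes from edgeR with 95% intervals for the 9 tested genes, with circles for ADP-heptose against non-stimulated, squares for flagellin against non-stimulated and triangles for ADP-heptose against flagellin, filled where the adjusted p was under 0.05. The circles are filled for all genes but IL18, and the squares only for IL17C, IL32 and CSF1.

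The plot of fold changes sets the comparisons side by side. IL17C and CSF1 had the highest point estimates after either stimulus, and both were about as far above flagellin after ADP-heptose (3.48 and 3.49) as flagellin was above the controls (3.95 and 3.56). IL32 and CSF2 rose by like amounts after ADP-heptose (5.45 and 5.42), and the values after flagellin were 2.18, called, and 1.15, not called. These contrasts share libraries, and the difference between genes was not tested. In a design of 3 against 3 the exact two-sided permutation p of a single gene cannot fall below 0.1, so that all p come from the model fitted across genes. The labels do not say that libraries are separate cultures, although the study describes independent experiments, and the p measure the spread between these libraries only.

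Levels were compared between genes per exon length, as RPKM, counts per kilobase of joined exons scaled by the TMM library size. Without stimulation IL18 (10.2 ± 0.20, SD, n = 3) and LIF (7.68 ± 0.80) stood above all others and made up 53.1% and 40.0% of the summed level of the 10 genes. The next, IL23A (0.34 ± 0.14), CSF2 (0.32 ± 0.20) and IL1A (0.32 ± 0.07), did not differ beyond their spread. Below them came IL32 (0.16 ± 0.10), CSF1 (0.11 ± 0.03), IL17C (0.066 ± 0.085) and IL1B (0.017 ± 0.017), each within the spread of its neighbour. After flagellin IL18 (10.1 ± 0.73) and LIF (9.59 ± 0.62) still led and overlapped. CSF1 (1.30 ± 0.05) and IL17C (1.04 ± 0.19) came next, ahead of IL32 (0.75 ± 0.23), CSF2 (0.70 ± 0.32), IL23A (0.67 ± 0.34) and IL1A (0.53 ± 0.15), whose ranges overlapped with each other and, for IL32, CSF2 and IL23A, with that of IL17C.

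After ADP-heptose the order was another. LIF led with 34.8 ± 4.6 RPKM, or 35.0% of the sum. CSF1 (14.6 ± 1.1) and CSF2 (13.7 ± 1.0) came next and overlapped, followed by IL18 (11.7 ± 1.5) and IL17C (11.6 ± 1.1), which overlapped as well, and the highest IL18 library reached the range of CSF2. IL32 (7.21 ± 1.6), IL1A (3.37 ± 0.31) and IL23A (2.19 ± 0.41) were lower and IL1B (0.17 ± 0.06) was far below. The summed level of the 10 genes was 19.2 ± 0.63 RPKM in the controls, 24.7 ± 0.33 with flagellin and 99.3 ± 2.5 with ADP-heptose.

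**Figure D3:**
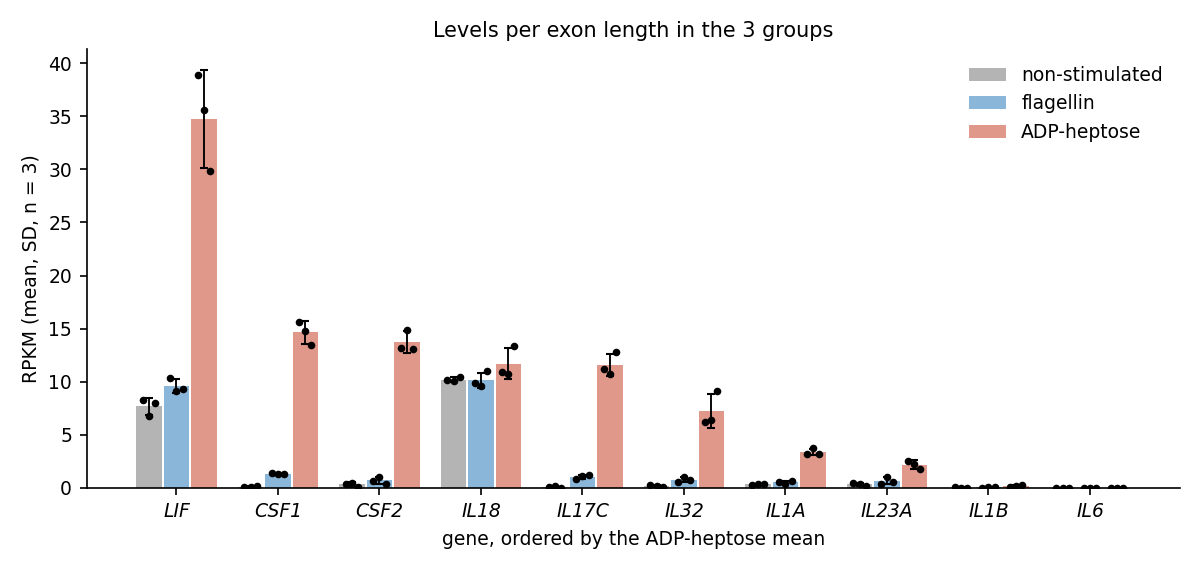
Levels per exon length (RPKM) of the 10 genes as bars of the group mean with SD (n = 3) and points for libraries, ordered by the ADP-heptose mean. LIF and IL18 are the highest genes without stimulation, and CSF1, CSF2, IL17C and IL32 join them after ADP-heptose.

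The bars show how few of the genes contributed before stimulation: 8 of the 10 were below 0.4 RPKM. After ADP-heptose 6 had means above 7 RPKM.

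Other ligands and antagonists of the same families were taken from a list of 32 cytokine genes, of which 11 passed the filter. After ADP-heptose 5 of the 11 were higher and 1 was lower, beside 7.48% and 4.42% of all genes tested. The median log2 change of the 11 was 0.39, beside 0.01 over all genes tested. The list was chosen with earlier results of these data known. IL12A, the p35 chain of IL-12, had counts of 10, 3 and 8 without stimulation, 6, 11 and 6 after flagellin and 94, 85 and 74 after ADP-heptose (log2 fold change 3.16 ± 0.38, adjusted p = 1.2e-04). EBI3, the shared chain of IL-27 and IL-35, had 2, 8 and 0, then 8, 6 and 10, then 51, 55 and 32 counts (3.31 ± 0.65, adjusted p = 0.00496, and 4.97 without non-stimulated replicate 2). Both genes passed the filter only through the ADP-heptose libraries, where they are high, so that their calls were partly set by it. CLCF1, a further ligand of the gp130 family, rose from 937 ± 39.1 to 2035 ± 52.4 (SD, n = 3, log2 fold change 1.12 ± 0.07, adjusted p = 3.8e-07).

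The remaining calls on this list were small. IL15, a growth factor of lymphocytes, measured 293.5 ± 32.7 without stimulation and 426 ± 19.6 after ADP-heptose (log2 fold change 0.54 ± 0.11, adjusted p = 0.00827). IL1RN, the antagonist of the IL-1 receptor, gave 0.39 ± 0.11 (adjusted p = 0.0427) but passed in only 6 of 16 alternatives. It failed without ADP-heptose replicate 1 or any single flagellin or non-stimulated library (adjusted p 0.0526 to 0.156). KITLG, the stem cell factor, was lower (−0.43 ± 0.10, adjusted p = 0.0126), and this call was lost without non-stimulated replicate 1 (0.066), in the fit of 6 libraries (0.0562), and at 0.05 without replicate 3.

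Receptor chains were counted to see which of the cytokines HT-29 cells carry the machinery for, and 10 of 24 passed the filter. For IL-17C both chains were present: IL17RA measured 1107 ± 17.1 without stimulation and 972 ± 60.6 after ADP-heptose (log2 difference −0.19, 95% interval −0.35 to −0.02, adjusted p = 0.143), and IL17RE measured 828.5 ± 79.8 and 800 ± 173 (−0.05, −0.34 to 0.24, adjusted p = 0.84). IL17RB, the IL-25 receptor chain of the same family, rose from 698 ± 9.07 to 1278 ± 63.0 (0.87 ± 0.08, adjusted p = 6.6e-06).

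Most receptors of the other members were at or near 0. LIFR, the LIF receptor chain, and CSF2RA and IL18RAP, chains of the GM-CSF and IL-18 receptors, had 0 counts in all libraries. How reads that map to several places were counted is not given in the sources used here, so a count of 0 may leave out such reads. CSF2RB had 0 to 2 counts, IL18R1 0 to 6, IL23R 0 to 6, CSF1R 0 to 8 and IL1R1 0 to 10. IL12RB1, a chain of the IL-23 receptor, had 0 counts in the controls, 2 to 8 after flagellin and 6 to 13 after ADP-heptose, and did not pass the filter.

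IL6ST, which encodes gp130, was abundant, with 4396 ± 160.5 without stimulation and 6670 ± 1460 after ADP-heptose (0.60 ± 0.13, adjusted p = 0.0109), and it lost its call without non-stimulated replicate 2 (0.0555). The co-receptor IL6R gave a log2 difference of −0.21 (95% interval −0.48 to 0.06, adjusted p = 0.315). IL1R2, the decoy receptor of IL-1, rose from 428 ± 41.9 to 628 ± 129 (0.55 ± 0.14, adjusted p = 0.0241). It lost its call without non-stimulated replicate 1 (0.116) or 2 (0.0684). ADP-heptose replicate 3 was the highest library in IL1R2 (773) and the lowest of its group in IL6ST (5037).

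Genes for the processing and release of IL-1 and IL-18 made up a list of 18, of which 10 passed the filter. After ADP-heptose 1 of the 10 was called higher and 0 lower, beside 7.48% and 4.42% of all genes tested. CASP4, an inflammatory caspase that senses lipopolysaccharide, gave 0.40 ± 0.10 (adjusted p = 0.0263), lost without any one of the non-stimulated libraries (0.0655 to 0.121). CASP1, which cleaves the IL-1β and IL-18 precursors, had 0 counts in all libraries, as had CASP5 and AIM2. IL18BP, the secreted antagonist of IL-18, gave a log2 difference of −0.08 (95% interval −0.52 to 0.35, adjusted p = 0.827). PYCARD, the adaptor of inflammasomes, measured 379 ± 24.6 and 428 ± 94.6, and GSDMD, the pore through which IL-1β leaves cells, 1931 ± 104 and 2211 ± 689.

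**Figure D4:**
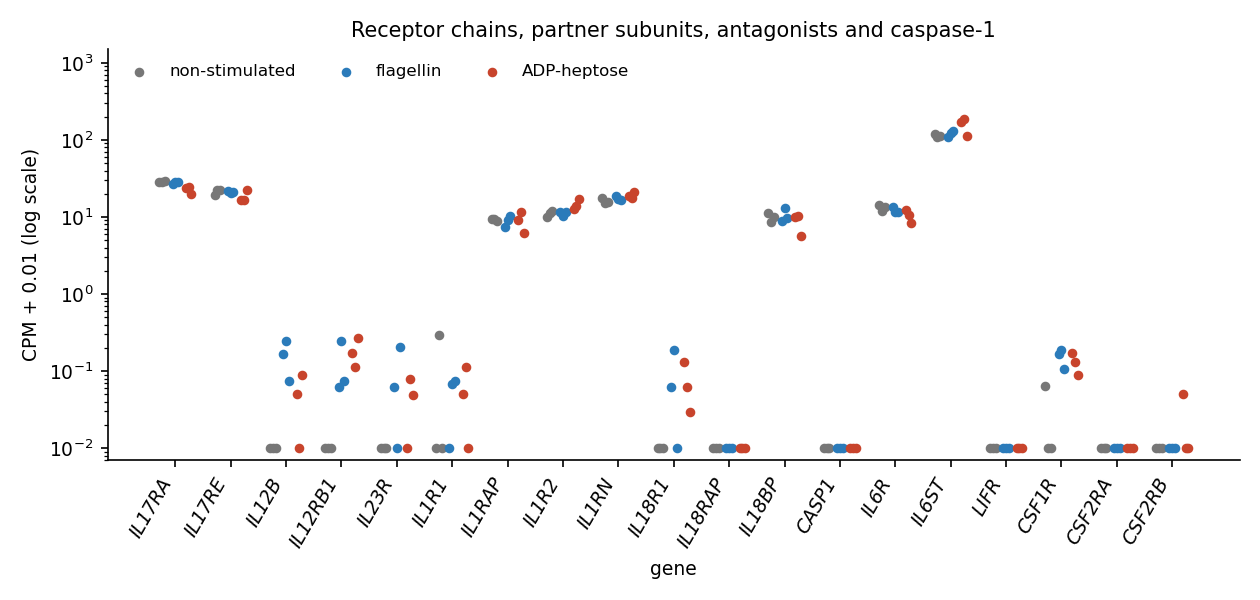
CPM of receptor chains, partner subunits, antagonists and caspase-1 in each library, on a log axis after adding 0.01, in grey for non-stimulated cells, blue for flagellin and red for ADP-heptose. IL17RA, IL17RE, IL6ST, IL6R, IL1RAP, IL1R2, IL1RN and IL18BP are well above the floor, and LIFR, CSF2RA, IL18RAP and CASP1 are at 0 in all libraries.

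The plot of receptors and partners shows these as 2 sets, 1 above 5 CPM and 1 below 0.3 CPM. After flagellin 0 of the 31 tested genes of the 3 lists were called by edgeR or by DESeq2. Over all genes tested edgeR called 0.368% higher in that contrast. Of the 31 genes, 1 had an unadjusted edgeR p under 0.05, beside 659 of the 17412 genes tested. Between the stimuli IL12A (2.94), CLCF1 (1.05), IL17RB (0.91), IL1R2 (0.52) and IL6ST (0.50) were higher after ADP-heptose and KITLG (−0.36) was lower. The calls of IL1R2, IL6ST and KITLG in that contrast were lost without each single flagellin or non-stimulated library, and those of IL6ST and KITLG also without ADP-heptose replicate 1 and that of IL6ST without replicate 2 (adjusted p 0.0534 to 0.176).

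The genes whose log2 profile over the 9 libraries lay nearest to that of a called member were sought among 12213 genes, by the root mean square difference after centring on the controls. The nearest to IL17C was CXCL2 (0.308), a chemokine for neutrophils, and the nearest to CSF1 was CXCL1 (0.391), another such chemokine. CXCL3 was nearest to IL32 (0.602) and NFKBIE, an inhibitor of NF-κB, to IL1A (0.252). BMP2, a growth factor, was nearest to LIF (0.124) and PLAU, the urokinase, to CSF2 (0.605). NEURL3, a ubiquitin ligase, was nearest to both IL23A (0.425) and IL1B (0.496). The second nearest were CXCL1 for IL17C (0.786), TNFAIP2 for CSF1 (0.433), PLAU for IL32 (0.665), BCL3 for IL1A (0.303), TNFAIP3 for CSF2 (0.682), NIBAN1 for IL23A (0.458) and PTGES for IL1B (0.536). These distances are a description of the 9 libraries.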

How the data were processed

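Poly(A) RNA of 9 HT-29 libraries was sequenced as paired 150-base reads, and the authors aligned it with HISAT2 and deposited raw featureCounts counts per gene, 1 column per library. Versions, build, annotation and strandedness are not given in the sources used here. Nor is it given whether the mates of a read pair were counted separately, or how reads that map to several places were counted. The table's 62972 lines hold 62710 identifiers, of which 232 recur with identical counts and were kept once, and 58274 (92.9%) are in GENCODE 29, which gave positions and exon lengths on GRCh38.

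The model, with a mean per group, was edgeR 4.0.16's robust quasi-likelihood fit (R 4.3.3) on TMM-normalized counts that passed filterByExpr at default settings. Counting intervals are Clopper-Pearson at 95% and, like the floor of 3 counts, cover counting error only. Both take each count as independent, so that the intervals are too narrow and the floor too low if mates were counted separately. The fits were tested on simulated counts. Alternatives were DESeq2 1.42.0 and its size factors, library totals, no filter or a mean count of 10, 6 libraries, a replicate block, a 2-fold threshold and each library left out.

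The members, the lists of cytokines, receptors, processing genes and markers and the motifs were chosen with earlier results of these data known. All members were named, and of the lists those called or acting directly with a member. PYCARD and GSDMD, CDX1, CDX2, ITGAM, COL1A1, KRT8, KRT18, KRT20, IL12RB1, IL18RAP, CASP1, CASP5, AIM2 and PTPRC were named after their values were seen. Neighbours by profile were the 2 nearest genes whose mean log2 CPM reached 1 (prior count 2), and 1 of them is not reported here. RefSeq held promoters for 6 of the 10 members.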

Additional observations from a re-analysis of the deposited data

How the results depend on the processing

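In 431 member values under 16 alternatives, 418 kept direction and side of the threshold, 8 lost the call, 2 gained it and 3 turned direction. Those that turned were IL18 after flagellin, whose log2 difference of −0.01 ranged from −0.077 to 0.019 with 1 library left out and was positive when flagellin replicate 1 (0.0014), flagellin replicate 2 or non-stimulated replicate 3 (0.0053) was missing. The number of members called after ADP-heptose was 8 throughout. After flagellin it was 2 to 4 and between the stimuli 6 to 7 with 1 library left out.

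The related genes called after ADP-heptose fell from 10 to 6 in the fit of 6 libraries and to 3 with the 2-fold threshold, and ranged from 6 to 11 with 1 library left out, where 6 was found without non-stimulated replicate 1 or 2. Calls over all genes were then 947 higher and 407 lower without replicate 1, and 974 and 490 without replicate 2. Between the stimuli the related genes called fell from 6 to 2 with the 2-fold threshold and ranged from 3 to 9 with 1 library left out, where 3 was found without any one flagellin library or non-stimulated replicate 1 and 9 without ADP-heptose replicate 3. Over all genes that contrast had 677 to 715 higher and 233 to 266 lower calls without any one flagellin library. The cause was not tested.

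Replicate numbers are shared by the groups. The deviations of log2 CPM from the group mean were correlated between libraries of different groups, over the better-counted genes. These correlations were −0.44 to 0.275 for same-numbered libraries and −0.444 to 0.485 for others, so the numbers were not taken to pair libraries. With the replicate block 8, 2 and 7 members were called after ADP-heptose, after flagellin and between the stimuli, and 9, 0 and 4 related genes. Of all 17412 genes tested, that fit called 1064 higher and 523 lower, 45 and 1, and 784 and 327 in the same order.

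Over all genes, 1302 higher and 770 lower calls after ADP-heptose became 917 and 1884 with library totals, which shifted the median over all genes to −0.13 (log2), and 940 and 481 between the stimuli became 708 and 1064 with a median of −0.11. IL17C, IL23A, IL32, IL1A, IL1B, LIF, CSF1 and CSF2 kept their calls there. Without ADP-heptose replicate 3 the calls were 2018 and 1270 after ADP-heptose, 165 and 6 after flagellin and 1798 and 923 between the stimuli. In the fits of 6 libraries they were 979 and 433, 140 and 3, and 735 and 269. Without a filter, flagellin gave 114 and 10, and DESeq2 97 and 3. Values below about 10 counts, as for IL1B, are limited by depth.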
